A study of Mus musculus with 12 samples.

Results

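Of 35389 H3K27ac regions found in both dox and control cells, 1470 had a raised fold enrichment in dox cells although no listed GLI1 site lay within 50 kb of them. They stand among 94481 merged regions in all. To find them, the deposited peaks of the dox and the control list that shared at least 1 bp were merged, and regions holding peaks of both lists were kept as shared. The highest fold enrichment in dox cells was divided by the highest in control cells. The log2 of that ratio was centred by subtracting the median over all shared regions, and a shared region counted as raised when the centred ratio was at least 1. Raised regions with no GLI1 site within 50 kb are called far raised regions here. The regions were selected on dox and control fold enrichment, and these values are given as a description, with no test. Another 929 raised regions had a listed GLI1 site within 50 kb and are called near raised regions.

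The cells were mouse cardiac progenitor cells differentiated from embryonic stem cells of the strain A2Lox.cre and harvested on day 6. The dox cells had been given 500 ng/ml doxycycline for the last 24 hours to induce GLI1, and the control cells were untreated. Both carried the inducible, tagged GLI1, since all 12 samples came from the single engineered line GLI1-FTA, so no parental line without the transgene and no doxycycline without GLI1 stand beside them. The samples form 6 groups of 2, with a GLI1 pulldown on streptavidin, an H3K27ac immunoprecipitation and an input from dox cells and the same from control cells. Each peak list was called on the pool of 2 samples, so no spread between samples is known, no test between conditions was possible, and all intervals below cover counting error only. The doxycycline effect and any other difference between the pools cannot be told apart, nor can more cells with the mark and more of the mark per cell.

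The heart label could be read against acetylation alone. Isl1, a marker of second heart field progenitors, had a highest fold enrichment at its gene ends of 21.0 in dox and 20.2 in control cells. Gata6 had 20.5 in dox and 26.7 in control cells, and Hand2 had 10.8 and 24.5 in the same order. Tnnt2, the gene of cardiac troponin T, had 3.74 in dox and 10.4 in control cells. No peak was listed within 1000 bp of an end of Nkx2-5, Gata4, Tbx5, Mef2c, Myh6 or Actn2. Both peak lists lack some running numbers, 1021 in dox and 973 in control cells, so an unlisted peak does not show a lack of acetylation. A shared region lay at an end of 20 of 30 cardiac transcription factor genes, 17 of 40 sarcomere genes and 2 of 20 neural genes.

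Acetylation of lysine 27 on histone H3 marks active promoters and active enhancers, and its level at an enhancer often changes when transcription factors are gained or lost there. GLI1 is a zinc finger activator at the end of the Hedgehog pathway, which binds motifs of its own at enhancers of target genes such as Ptch1. In the early heart, Hedgehog signals act on progenitors of the second heart field, which add cells to the outflow tract and atria.

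The promoters that lay inside far raised regions show what kind of sequence these regions can hold. RefSeq promoter windows (250 bases before to 50 bases after an annotated start, GRCm38.p6, the assembly behind mm10) lay whole inside 138 of the 1470 regions, 167 windows of 155 genes in all. The 5 windows that belong to genes of the lists described further on are shown, 5′ to 3′ on the strand of the gene. In the first 3, capitals mark motifs found by a letter search. Tcf21 (chr10:22820094-22820393, minus strand), a factor of epicardial and fibroblast progenitors, held AGATAA, the GATA motif, beginning 31 bases before the start. Six2 (chr17:85688205-85688504, minus strand), a homeobox gene of progenitor cells, held it 98 bases before the start. Ccnd3 (chr17:47504801-47505100, plus strand), the gene of cyclin D3, held a forkhead motif, GTAAACA, on the opposite strand and a pair of matches to ACAAAG, the SOX and TCF motif, also on the opposite strand.
Tcf21: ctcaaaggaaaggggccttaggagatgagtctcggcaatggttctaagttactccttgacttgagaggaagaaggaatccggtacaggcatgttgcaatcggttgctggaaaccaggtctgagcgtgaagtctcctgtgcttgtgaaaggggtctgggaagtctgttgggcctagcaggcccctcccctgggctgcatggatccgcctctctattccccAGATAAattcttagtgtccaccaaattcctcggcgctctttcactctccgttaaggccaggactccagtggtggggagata
Six2: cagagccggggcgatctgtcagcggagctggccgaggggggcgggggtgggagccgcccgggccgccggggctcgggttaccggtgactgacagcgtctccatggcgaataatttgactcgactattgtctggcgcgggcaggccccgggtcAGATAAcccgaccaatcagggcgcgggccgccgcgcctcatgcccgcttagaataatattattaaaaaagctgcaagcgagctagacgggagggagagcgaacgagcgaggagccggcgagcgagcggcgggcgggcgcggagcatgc
Ccnd3: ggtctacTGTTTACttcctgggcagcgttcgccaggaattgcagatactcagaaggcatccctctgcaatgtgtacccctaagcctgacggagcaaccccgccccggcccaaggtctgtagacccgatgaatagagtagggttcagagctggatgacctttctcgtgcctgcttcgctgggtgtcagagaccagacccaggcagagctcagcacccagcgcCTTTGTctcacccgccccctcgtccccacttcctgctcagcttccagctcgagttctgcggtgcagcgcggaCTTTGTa
In the next pair, capitals mark CpG dinucleotides, because the windows lie at opposite ends of the range. Tet2 (chr3:133544341-133544640, minus strand), whose product oxidises methylated cytosine, had 57 CpG and a GC content of 81.3%. A start inside Foxp1 (chr6:99266466-99266765, minus strand), a forkhead factor gene, had 5 CpG and 48.7% GC.
Tet2: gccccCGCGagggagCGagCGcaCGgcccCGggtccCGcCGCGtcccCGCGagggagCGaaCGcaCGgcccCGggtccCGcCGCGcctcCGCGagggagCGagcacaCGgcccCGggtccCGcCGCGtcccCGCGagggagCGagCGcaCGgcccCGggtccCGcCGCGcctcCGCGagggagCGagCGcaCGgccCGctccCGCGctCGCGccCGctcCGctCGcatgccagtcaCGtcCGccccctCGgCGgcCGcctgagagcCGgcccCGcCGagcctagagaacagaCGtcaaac
Foxp1: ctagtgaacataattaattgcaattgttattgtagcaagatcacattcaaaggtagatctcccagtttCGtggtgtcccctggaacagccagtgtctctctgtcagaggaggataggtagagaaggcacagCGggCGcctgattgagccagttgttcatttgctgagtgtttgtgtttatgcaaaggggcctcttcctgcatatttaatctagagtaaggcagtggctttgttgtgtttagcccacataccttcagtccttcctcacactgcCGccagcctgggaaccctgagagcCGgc
The dox summit lay 298 bp after the start of Tcf21, 286 bp after that of Tet2 and 453 bp after that of Foxp1. It lay 171 bp before the start of Ccnd3 and 1157 bp before that of Six2.

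Promoters in far raised regions held fewer CpG than promoters in the other shared regions over 50 kb from a GLI1 site, called other far regions. The median was 14 CpG per window in the 167 windows of far raised regions, against 23 in 5818 windows of other far regions and 7 over all 32851 windows. With only the first window of each gene the medians were 14 and 22. Windows with 5 CpG or fewer made up 22.2% in far raised regions, 8.82% in other far regions and 43.6% over all windows. The median GC content was 56% in far raised regions, 62% in other far regions and 52.7% over all windows. Long noncoding RNA genes accounted for 34.1% of the windows in far raised regions and 16.1% in other far regions. These windows were thus poorer in CpG than promoters that are acetylated without being raised, yet richer than promoters at large. The control value is the denominator of the ratio that chose the far raised regions. The part of peak strength in this difference was not tested.

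Motifs were counted in the same windows on both strands, as letters with no claim of binding. The GLI motif GACCACCCA was in 0 of 167 windows of far raised regions, which allows up to 2.18% (95% interval, exact binomial), in 0.138% of windows in other far regions and in 0.253% of all windows. Both sets leave out regions within 50 kb of a listed GLI1 site, and the list holds sites with a Gli motif. That choice could by itself lower the share of this motif in both sets. AGATAA was in 11.4% (6.99 to 17.2) of windows in far raised regions, 5.81% (5.22 to 6.44) in other far regions and 11.2% of all. The forkhead motif GTAAACA was in 6.59% (3.33 to 11.5), against 2.96% (2.54 to 3.42) and 3.65% of all. ACAAAG was in 21.6% (15.6 to 28.6), against 13.5% (12.7 to 14.4) and 18.7% of all, and the E-box CAGCTG in 21.0% (15.1 to 27.9), against 14.1% (13.2 to 15.0) and 16.3% of all. The ETS motif CCGGAA, common at CpG-rich promoters, went the other way with 19.2% (13.5 to 26.0), against 32.6% (31.4 to 33.8) in other far regions and 14.9% of all. The intervals of far raised and other far regions overlapped for the GLI and forkhead motifs, and stood apart for the GATA motif, the SOX and TCF motif, the E-box CAGCTG and the ETS motif. CpG content also differed between these sets of windows, and its part in the shares was not tested. For the 9 further motifs searched, the intervals overlapped as well. These were CACGTG (10.2% and 9.56%), GGAATG (15.6% and 12.6%), TGACGTCA (1.80% and 3.51%), TGANTCA (5.99% and 4.59%), TAATTA (2.40% and 2.27%), GCCAAT (12.6% and 14.1%), TATAAA (5.99% and 6.24%), TTGCATCA (0% and 0.498%) and the MEF2 motif (0% and 0.155%). Windows of neighbouring starts overlap in part, so they are not independent.

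In the far raised regions, moderate H3K27ac peaks of dox cells stood over weak peaks of control cells. Their median fold enrichment was 10.2 in dox and 4.09 in control cells, with ranges of 4.54 to 43.7 in dox and 2.26 to 22.4 in control cells. The median centred log2 ratio was 1.28, which is 2.42-fold, and the highest was 2.99. Near raised regions were stronger, with medians of 13.6 in dox and 4.44 in control cells and a ratio of 1.47, or 2.77-fold. In other far regions the order was turned round, with 5.83 in dox and 7.59 in control cells. Control values in far raised regions were thus below those of other far regions and dox values above them. The control value is the denominator of the ratio that chose the regions.

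**Figure D1:**
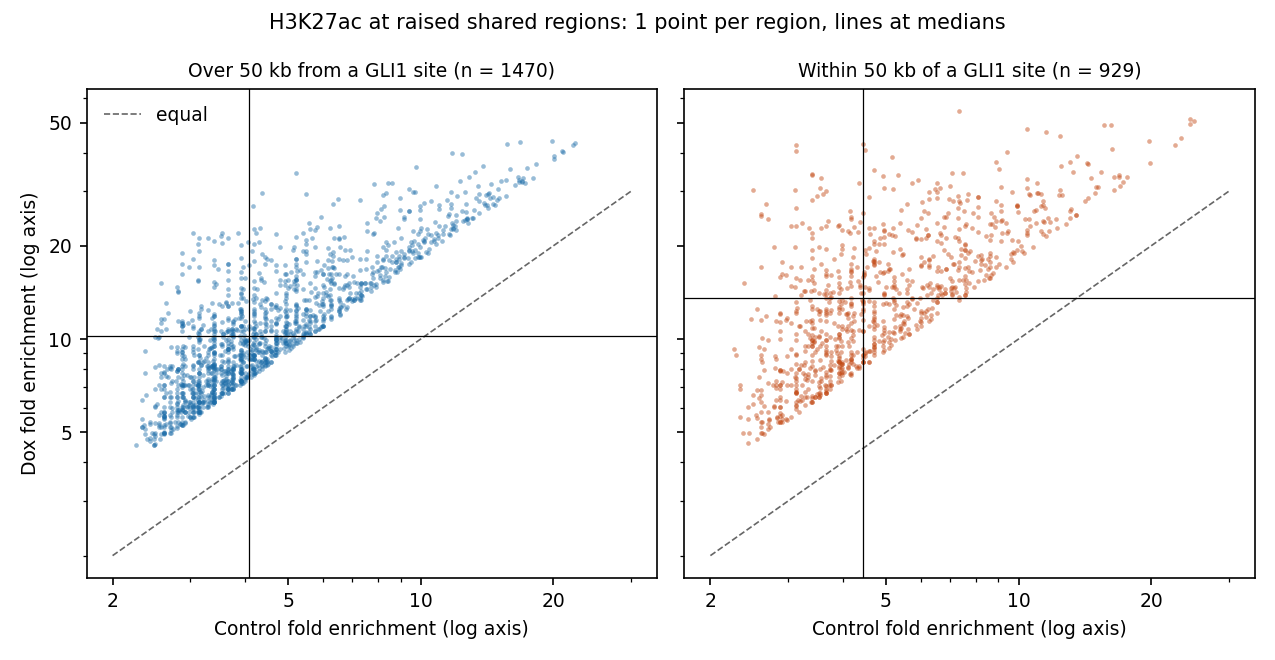
Highest H3K27ac fold enrichment in dox cells (vertical, log axis) against control cells (horizontal, log axis), 1 point per raised shared region, with medians as solid lines and equality dashed. The 1470 regions over 50 kb from a GLI1 site centre on 10.2 in dox and 4.09 in control cells, and the 929 within 50 kb on 13.6 and 4.44.

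Pileup and −log10 q belong to the same summits whose fold enrichment chose the regions. Higher dox than control values thus largely follow from that choice and are given as a description. The pileup at the strongest summit, recovered from the deposited values, had a median of 50 reads in dox and 17 in control cells in far raised regions, and of 28 and 32 in other far regions. These reads are not scaled for depth, whose ratio of dox over control was taken as 1.28. The 95% counting interval of the pileup ratio lay above that depth ratio in 67.1% of far raised and 85.3% of near raised regions. It lay above the median ratio of all shared regions in 86.3% and 94.6%. The median −log10 q of the authors was 34.8 in dox and 5.84 in control cells. It reached 10 in both lists in 29.7% of far raised regions, 36.4% of near raised regions and 49.6% of all shared regions. The peaks were wider in dox cells, with a median of 1649 bp in dox and 619 bp in control cells and a median of 3 summits in dox and 2 in control cells. In control cells 48.2% of far raised regions had a single summit, against 38.8% of other far regions. Near raised regions were wider still, at 2512 bp in dox and 810 bp in control cells.

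Values just inside and just outside the limits lay close together, as any threshold implies. Just inside the ratio limit stood a region of 457 bp in Cacna1c, a calcium channel gene, with 4.96 in dox and 2.72 in control cells, then regions at Nos1ap, Prpf19, Bnc2 and Erlin2, all at 1.00. Just outside stood regions near Gm5785, Stk39, Diaph3, Cd44 and Nipsnap3b, also at 1.00 when rounded. The closest region beyond 50 kb lay 50.9 kb from a GLI1 site near Slc45a4, followed by regions near Xxylt1 (51.3 kb), 1500009L16Rik (51.4 kb), Hdhd5 (51.5 kb) and Frs2 (51.6 kb). The first raised regions within 50 kb lay near Trdmt1 (49.5 kb), Haao (49.5 kb), Cldn23 (49.1 kb), Fhdc1 (49.0 kb) and Gtf2ird1 (48.9 kb). The median distance of the far raised regions to a site was 303.5 kb and the longest 12326 kb.

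The share of raised regions thinned out steadily with distance from GLI1 sites and did not reach 0. Over all shared regions 6.78% were raised and 8.31% lowered, a lowered region having a centred log2 ratio of at most −1. With a GLI1 site inside, 51.2% of shared regions were raised (95% interval 47.6 to 54.8) and 1.02% lowered. The raised share was 9.68% up to 10 kb, 8.46% between 10 and 50 kb and 6.21% between 50 and 100 kb. It was 5.68% between 100 and 200 kb, 5.06% up to 500 kb, 4.68% up to 1000 kb and 4.42% (3.85 to 5.03) beyond. Beyond 50 kb as a whole, 1470 of 28585 shared regions (5.14%) were raised and 2478 (8.67%) lowered, so lowered regions outnumbered raised ones there. Regions present in only 1 list moved the same way. With a site inside, the counts were 974 in dox and 3 in control cells, followed by 1.31 dox-only per control-only region between 50 and 100 kb, and 0.852 beyond 1000 kb. Recovered pileup is the numerator of the same fold enrichment and so no separate measurement. By pileup, the raised share fell from 6.31% between 50 and 100 kb, then 5.14%, 4.61% and 4.25%, to 3.80% beyond 1000 kb.

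**Figure D2:**
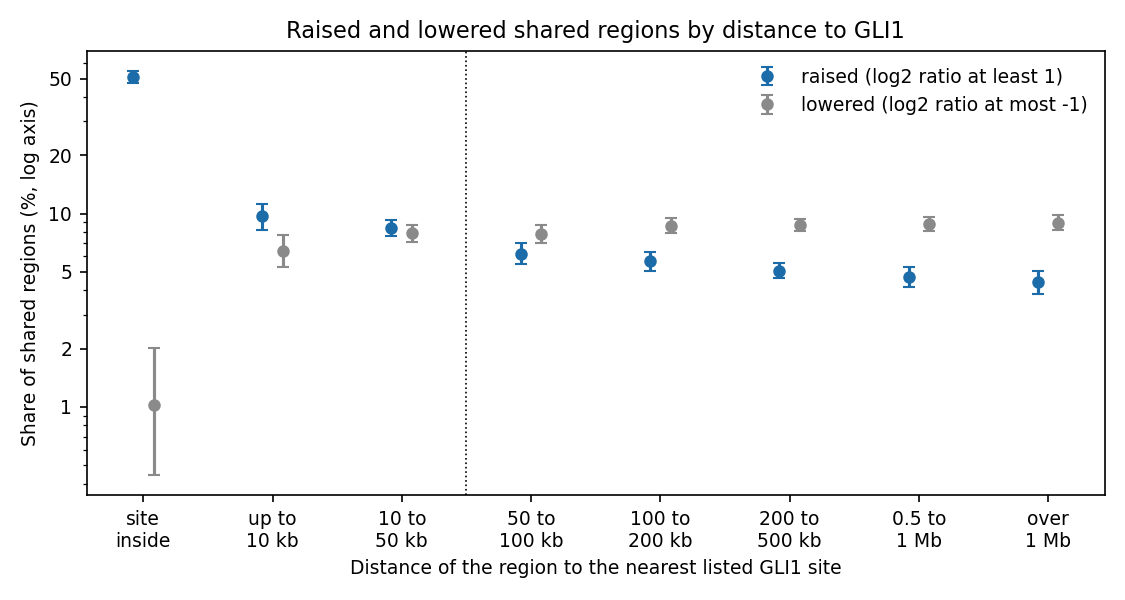
Share of shared regions that were raised (blue) or lowered (grey), in percent on a log axis, by distance to the nearest listed GLI1 site, with exact 95% binomial intervals. The dotted line marks 50 kb, beyond which the raised share lies between 4.42% and 6.21% and the lowered share between 7.85% and 8.97%.

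The GLI1 list does not hold every site its numbering implies, and distances rest on it. It lists 2605 sites with running numbers up to 5999, and 3501 numbers in that range are absent from it. Of the far raised regions, 160 (10.9%) lay between listed sites with consecutive numbers, where no number is absent. In such stretches 4.95% (4.23 to 5.75) of shared regions over 50 kb from a site were raised, against 5.17% (4.90 to 5.45) of all the others. The others lay where a number was absent, or had no listed site on at least 1 side on their chromosome. The list comes from dox cells and from sites with a Gli motif, so GLI1 sites of control cells and sites without the motif were not analysed here.

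Far raised regions lay away from gene ends more often than the other far regions. Of the 1470, 325 (22.1%, 20.0 to 24.3) lay within 1000 bp of an annotated end of a protein-coding gene, against 33.7% (33.1 to 34.2) of other far regions. Near raised regions were at gene ends in 13.9% (11.7 to 16.3). A further 615 far raised regions (41.8%) lay inside a gene and 530 (36.1%) between genes, at a median of 37772.5 bp from the nearest gene. In other far regions, 37.0% lay inside a gene and 29.4% between genes. Position was not used to choose the regions. The share at gene ends depended on how the regions were chosen. It was 34.4% against 51.5% of other far regions with a −log10 q of at least 10 in both lists, 13.5% against 34.1% when regions were chosen by pileup, and 11.1% against 33.4% with a ratio of at least 1.5. The gap was narrowest for regions chosen by width-weighted mean fold enrichment, at 29.7% against 33.2%.

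The 3 positions differed in what the ratio was made of. Inside genes the median fold enrichment was 9.82 in dox and 3.92 in control cells, and the centred log2 ratio was 1.34 by fold enrichment and 1.31 by recovered pileup. Between genes both ratios were alike as well, at 1.31 and 1.30. At gene ends the ratio was 1.17 by fold enrichment but 0.94 by pileup, and the local background the authors' peak caller had used was lower in dox relative to control cells, at −0.31 on the same centred log2 scale. That background ratio was −0.06 inside genes and 0.00 between genes in far raised regions. A pileup ratio under 0.5 was found in 61 of 325 far raised regions at gene ends (18.8%), 13 of 615 inside genes (2.11%) and 13 of 530 between genes (2.45%). At gene ends, part of the fold enrichment ratio thus lay in its denominator. Over all far raised regions the median pileup ratio was 1.24, and 1050 (71.4%) reached 1, against 800 of 929 (86.1%) near raised regions.

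**Figure D3:**
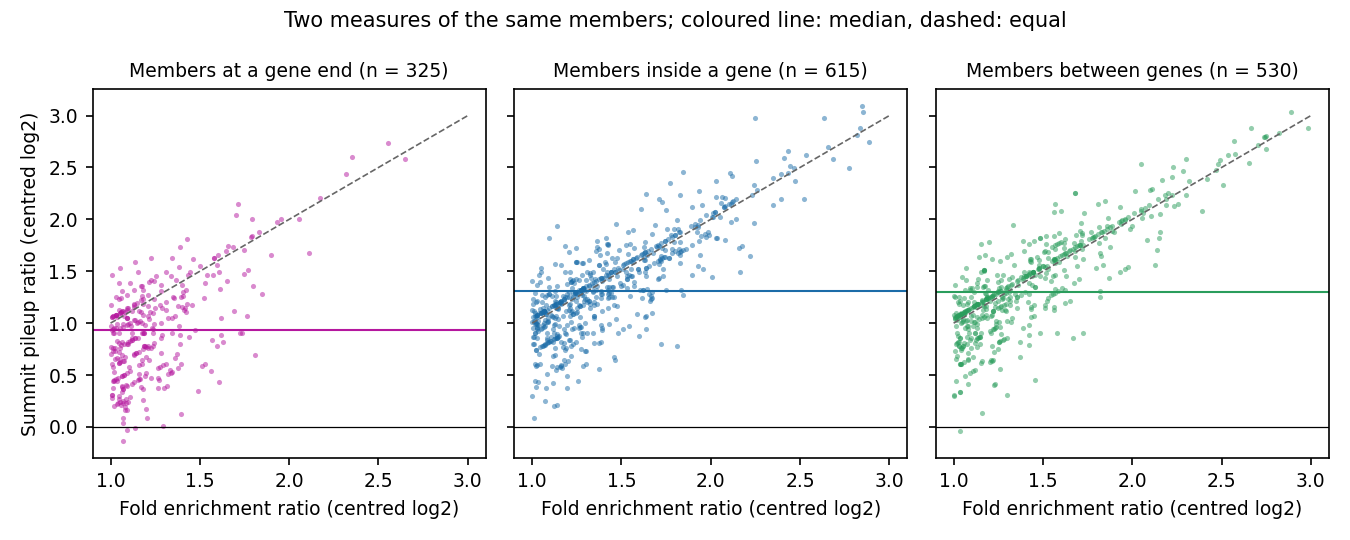
Centred log2 ratio of dox over control by recovered summit pileup (vertical) against the same by fold enrichment (horizontal) for far raised regions at a gene end, inside a gene and between genes, 1 point per region. The coloured line is the median pileup ratio, 0.94 at gene ends, 1.31 inside genes and 1.30 between genes, and points under the dashed line of equality are most frequent at gene ends.

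The regions with the highest ratios had strong dox peaks over weak control peaks. A region of 2787 bp lying 1.07 kb from Alas1 (chr9:106249019-106251805), which encodes the first enzyme of heme synthesis, had a fold enrichment of 22.0 in dox and 3.05 in control cells, a log2 ratio of 2.99, from 101 reads in dox and 12 in control cells. A region in Bach2 (chr4:32287257-32292990), the gene of a transcriptional repressor best known from lymphocytes, had 29.5 in dox and 4.37 in control cells (2.89). A region 22.5 kb from Lpin2, a phosphatidate phosphatase gene, had 21.1 in dox and 3.13 in control cells (2.89). In all 3 the dox peak ranked well above the dox median of far raised regions, and the control −log10 q was between 2.63 and 7.13. Fndc3b, which encodes a membrane protein with fibronectin type III domains, had 18.9 in dox and 2.87 in control cells (2.85). Ccdc141 (2.85), with 34.2 in dox and 5.22 in control cells, had a ratio of only 1.30 when fold enrichment was averaged over peak widths. Maml2, a coactivator of Notch signals, had 20.3 in dox and 3.12 in control cells (2.84). The remaining regions of the 10 lay 1.90 kb from Coa4 (2.82), a factor of cytochrome oxidase assembly, in Agap1 (2.82), in Pde9a (2.77), a phosphodiesterase gene, and 56.2 kb from Dusp4 (2.75), a phosphatase of MAP kinases. None of the 10 lay within 1000 bp of a gene end, and their recovered pileups gave ratios between 2.49 and 3.09.

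The regions with the highest dox values differed by position. Among the regions with the highest dox fold enrichment, those at Snrpb, Gpsm3, Asap1, H4f16 and Atrnl1 lay at gene ends. Snrpb, which encodes a core protein of the spliceosome, had 43.1 in dox and 16.8 in control cells (log2 ratio 1.49), but its pileups of 208 reads in dox and 153 in control cells gave 0.35. The pileup ratios at Gpsm3, Asap1, H4f16 and Atrnl1 were 0.50, 0.41, 0.33 and 0.52, so at these 5 gene ends the pileup ratio was well under the fold enrichment ratio. Away from gene ends the ratios were closer. Hlf (chr11:90368148-90372222), a PAR bZIP factor gene, had 39.8 in dox and 11.7 in control cells (1.89), and 183 reads in dox and 44 in control cells gave 1.94. Nars2, a mitochondrial tRNA synthetase gene, had 39.5 in dox and 12.4 in control cells (1.80; pileup 1.70). A region 10.4 kb from Copz2, a coatomer subunit gene, had 42.5 in dox and 15.7 in control cells (1.57; pileup 1.33). Stk40, at the top, had 43.7 in dox and 19.9 in control cells (1.27; pileup 0.96).

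**Figure D4:**
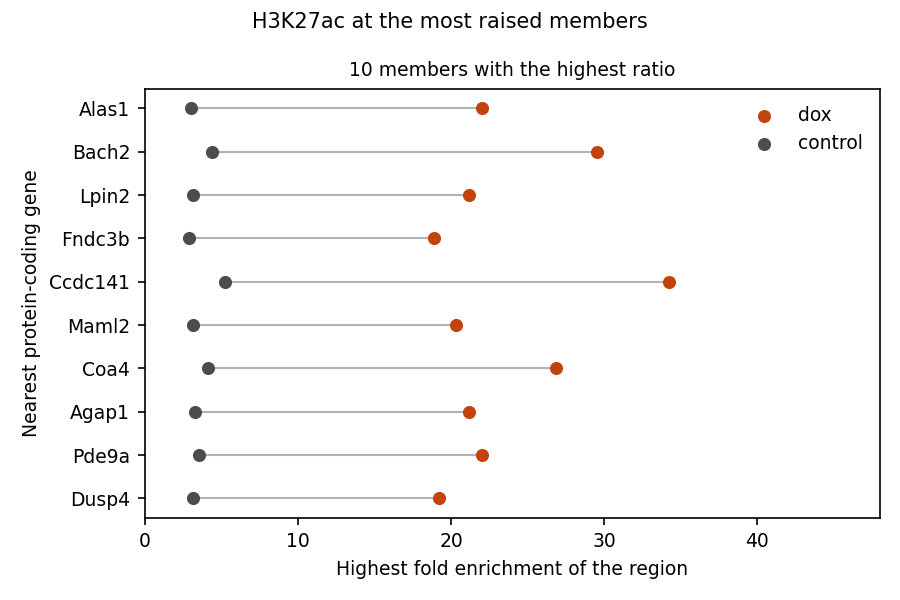
Highest H3K27ac fold enrichment in dox (orange) and control cells (grey) for the 10 far raised regions with the highest ratio, 1 row per region, named by the nearest protein-coding gene. All 10 control values lie between 2.87 and 5.22, left of every dox value.

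Far raised regions kept company with each other and with new dox peaks. Another far raised region lay within 10 kb of 152 of the 1470 (10.3%), within 50 kb of 355 (24.1%) and within 100 kb of 483 (32.9%). Among shared regions over 50 kb from a GLI1 site, 11.0% (9.41 to 12.8) were raised where another far raised region lay within 10 kb, and 4.84% (4.59 to 5.11) where none did. Lowered regions were scarcer in that company, at 4.13% (3.14 to 5.32) with such a neighbour and 8.90% (8.56 to 9.24) without. A dox-only region lay within 10 kb of 64.1% of far raised regions and 36.4% of other far regions, and a control-only region within 10 kb of 24.0% and 43.8%. Joined when each lay within 100 kb of the next, the 1470 regions formed 1199 groups. Of these, 987 were single regions, 168 held 2, 31 held 3, 11 held 4 and 2 held 5.

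The largest groups were runs of several raised peaks, most of them over 1 or 2 genes. The 8 described here were taken by size, with ties broken by their median ratio after the values had been seen. Each span runs from the first to the last raised region of its group, so a high raised share within it follows from how it was drawn. At Bmf, the gene of a proapoptotic BCL2 family protein, and its neighbour Srp14, 5 of the 6 shared regions across 55.5 kb (chr2:118490366-118545895) were raised. Their dox values ran from 4.92 to 33.3 and their control values from 2.58 to 12.9, and the highest ratio of 2.26 lay inside Bmf, with 15.0 in dox and 3.43 in control cells. Beside them lay 6 dox-only and 0 control-only regions. In Bach2, all 4 shared regions across 32.5 kb were raised, with dox values of 7.43, 6.23, 29.5 and 9.37 over control values of 3.99, 2.80, 4.37 and 3.33, so 1 of the 4 was far above the rest in dox cells alone. A further 7 regions in that span were dox-only. By nearest gene, Bach2 had 27 shared regions over 50 kb from a GLI1 site, with a median ratio of 0.21, and only these 4 were raised. A further 8 shared regions nearest Bach2 lay within 50 kb of a GLI1 site. Around Scg3 and Tmod3, a secretory granule and a tropomodulin gene, 4 of 6 shared regions were raised, led by a region 85 bp from Tmod3 with 30.5 in dox and 9.40 in control cells (1.83), and 15 regions were dox-only.

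Other groups lay at genes of signalling. On chromosome 15, 4 of 7 shared regions across 52.1 kb were raised at Acvrl1 and Acvr1b, which encode type I receptors of the TGF-beta family. In Acvrl1 the stronger region had 19.9 in dox and 5.16 in control cells (2.08), and in Acvr1b the region with the higher ratio had 14.9 in dox and 5.05 in control cells (1.69). At Kitl, the ligand of the receptor Kit, 4 of 11 shared regions in the span were raised, 3 of them between genes and all with ratios between 1.23 and 1.72. By nearest gene, Kitl had 15 shared regions over 50 kb from a GLI1 site, of which these 4 were raised. In Gnaq, a G protein alpha subunit gene, 4 of 7 shared regions in the span were raised, and 4 of 14 by nearest gene. All 4 were weak, with 6.70 to 7.99 in dox and 2.61 to 3.52 in control cells. Foxp1, a forkhead factor with a role in heart muscle growth, held 4 raised regions of 6 across 65.6 kb (chr6:98948154-99013754), with dox values of 16.4, 14.9, 13.0 and 12.1 over control values of 7.79, 7.83, 4.58 and 3.13. The dox values there were similar while the control values differed, and the ratio of 2.08 belonged to the lowest control value. The last of the 8 spanned 281 kb of the histone gene cluster on chromosome 13 (chr13:23306491-23587429), where 5 of 19 shared regions were raised with ratios between 1.06 and 1.37. A lowered region lay in 0 of the 8 spans, beside 8.67% lowered among all shared regions over 50 kb from a GLI1 site. Raised regions cannot be lowered, and they made up much of each span, so few lowered regions could be found there.

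**Figure D5:**
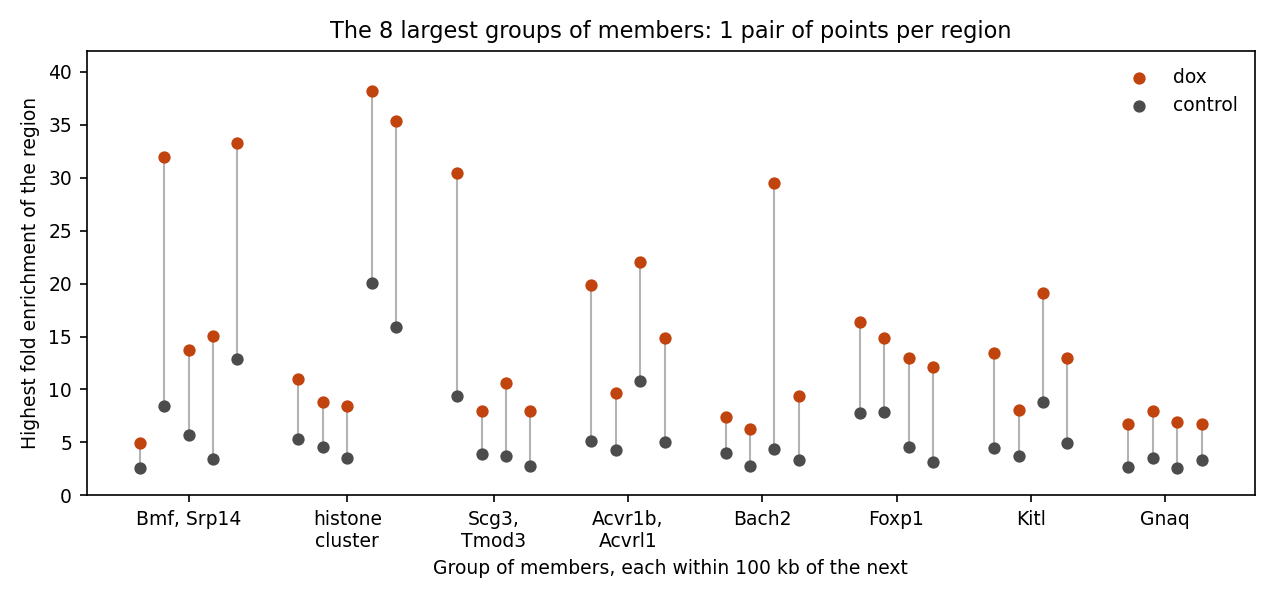
Highest H3K27ac fold enrichment in dox (orange) and control cells (grey) at each far raised region of the 8 largest groups, in genome order within a group. Dox values run from 4.92 to 38.2 and control values from 2.58 to 20.1, and in every pair the dox value is the higher, as the choice of regions fixes.

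Genes of the lists carried far raised regions about as often as genes at large. The lists cover Hedgehog, other signalling pathways, cell types, stress and the cell cycle. A far raised region lay at a gene end of 9 of 467 list genes (1.93%), against 366 of 21900 protein-coding genes (1.67%). Within 50 kb of a gene end it was 58 of 467 (12.4%), against 10.2% of all genes. Both shares are close to those of all genes.

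Of the 40 genes in the Hedgehog list, 0 had a far raised region at a gene end, beside 1.67% of all genes, and 27 had a shared region there. Regions with a GLI1 site within 50 kb were left out by the rule. Within 50 kb, 10.2% of all genes had a far raised region, and of the 40 only Boc did. Boc, a co-receptor of Hedgehog ligands, had a region of 846 bp inside the gene with 8.27 in dox and 4.14 in control cells (log2 ratio 1.13, pileup 1.05).

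In the mesoderm and second heart field list, 3 of 30 genes had a far raised region at a gene end, beside 1.67% of all genes. A region 785 bp from Tbx6, a T-box gene of paraxial mesoderm, had 19.4 in dox and 5.12 in control cells (log2 ratio 2.05, pileup 2.01), and the nearest GLI1 site was 2343 kb away. At the ends of Tcf21, 2 far raised regions had 11.8 and 7.22 in dox and 5.74 and 3.13 in control cells (1.17 and 1.34). Six2 had 10.4 in dox and 4.93 in control cells (1.21). By pileup, which is the numerator of the same fold enrichment, the regions of Tcf21 and Six2 had ratios of 1.36, 1.45 and 1.27. Of 30 cardiac transcription factor genes, 0 had a far raised region at a gene end and 3 within 50 kb, where 10.2% of all genes had one. A region in Meis1, a homeobox gene, had 11.3 in dox and 2.87 in control cells (2.11), one in Hopx 13.8 and 7.36 (1.04), and one 45.3 kb from Mef2a 5.40 and 2.81 (1.07). Of 40 sarcomere genes, 0 had one at a gene end and 3, Fhl2, Myom1 and Tnni1, within 50 kb. The region near Myom1 is the one near Lpin2.

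In the other cell type lists, few genes had a far raised region at a gene end, beside 1.67% of all genes. At that share, lists of this size hold few or none. Cdh11, a cadherin of mesenchymal cells, had 26.1 in dox and 9.99 in control cells (log2 ratio 1.52), the only one of 22 smooth muscle and mesenchyme genes. Of 24 pluripotency genes it was Tet2, with 12.1 in dox and 4.44 in control cells (1.58). The counts were 0 of 24 for endothelial and blood genes, 0 of 20 for neural and 0 of 20 for endoderm genes. Within 50 kb they were 3, 0 and 1, beside 10.2% of all genes. Near Erg, an endothelial ETS factor gene, a region had 20.6 in dox and 8.68 in control cells (1.38), and near Cd34 one had 18.1 and 6.53 (1.60).

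In the lists of other signalling pathways, 0 genes had a far raised region at a gene end, beside 1.67% of all genes, a share at which lists of this size hold few or none. Acvr1b, outside the lists, had one at a gene end, with 22.0 in dox and 10.8 in control cells (log2 ratio 1.16). The counts that follow are within 50 kb, where 10.2% of all genes had a far raised region. For BMP and TGF-beta it was 2 of 28 genes, both receptors. Within 50 kb of Bmpr2 3 regions had 8.64, 18.8 and 17.7 in dox and 3.92, 6.24 and 8.78 in control cells, and Tgfbr2 held 2 with 8.80 and 14.5 in dox and 4.18 and 7.57 in control cells. For Wnt it was 4 of 30, the highest ratio lying 38.5 kb from Sfrp5, a secreted inhibitor, with 13.1 in dox and 3.62 in control cells (1.99). The other Wnt genes were the TCF factors Tcf7 (1.74), Tcf7l1 (1.19) and Tcf7l2 (1.29). For FGF and ERK feedback it was 5 of 24, among them Ier3 (1.68), Spred2 (1.49), Dusp4 (1.32) and Il17rd (1.23). Spry1, Spry2, Spry4, Spred1, Dusp5 and Dusp6 of the same list had none. Near Fgfr1 a region at another gene's end had 34.6 in dox and 13.3 in control cells (1.51, pileup 0.59). For Notch it was 2 of 18. A region 34.0 kb from Hes1, a repressor induced by Notch, had 11.8 in dox and 3.13 in control cells (2.05), and one 45.6 kb from Notch2 had 36.1 and 13.8 (1.51). Retinoic acid genes counted 1 of 17, Rara.

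Cell cycle, cytoskeleton and metabolic genes completed the picture. Cell cycle genes had 3 of 28 at a gene end, beside 1.67% of all genes. A shared region lay at an end of 27 of the 28, and of all genes with such a region 3.65% had a far raised one. Ccnd3 had 11.2 in dox and 5.03 in control cells (log2 ratio 1.28, pileup 1.31). Cdkn1b, the gene of the inhibitor p27, had 33.0 in dox and 18.0 in control cells (1.01) and Top2a, a DNA topoisomerase gene, 26.6 and 11.7 (1.32), but their pileup ratios were 0.28 and 0.39. Vcl, the gene of the adhesion protein vinculin, was the only one of 24 cytoskeleton genes at a gene end, with 11.5 in dox and 3.66 in control cells (1.79, pileup 2.01). Inside Pxn, the gene of the adhesion protein paxillin, a region had 20.3 in dox and 4.18 in control cells (2.41). The counts at gene ends were 0 of 28 for the integrated stress response, 0 of 25 for hypoxia and glycolysis and 0 of 20 for housekeeping genes. Within 50 kb they were 4, 3 and 2, beside 10.2% of all genes.

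Replication-dependent and other histone genes stood out by number, and were picked after their values had been seen. Of 45 histone genes with a shared region at an end, 13 (28.9%) had a far raised region there, against 3.65% of all protein-coding genes with such a region. These 13 genes shared 8 regions, 7 of them on chromosome 13, since histone genes lie side by side. The region at H2ac10, H3c8 and H4c8 (chr13:23529723-23536874) had 38.2 in dox and 20.1 in control cells (log2 ratio 1.06, pileup 1.11). That at H2bc6 and H4c4 had 35.3 in dox and 15.9 in control cells (1.28, pileup 1.37), and that at H3c2 had 11.7 and 3.87 (1.73, pileup 0.91). Across all 42 shared regions at histone gene ends the median ratio was 0.46 by fold enrichment and 0.51 by pileup, 38 lay above 0 by either measure, and 0 were lowered. Histone genes have near-identical copies, so how reads were shared among them is uncertain.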

How the data were processed

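The samples were 6 groups of 2 chromatin libraries (H3K27ac, tagged GLI1 and input). The submitters' processing notes name mm10 as the build and MACS2 (2.1.1), SAMtools (1.5) and Bowtie2 (2.3.2) as tools, whose roles are not given in the sources used here. The authors' deposited H3K27ac lists, 1 per condition on pooled samples, give each summit a fold enrichment, which is a ratio of pileup to local background, with a −log10 p and, as a score, a −log10 q. The deposited GLI1 list holds sites with a Gli motif and a score read as −log10 q. Control GLI1 and input lists were not analysed here.

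The dox list held 142222 summits in 76437 intervals (66.0 Mb, lowest −log10 q 1.33) and the control list 126500 in 67463 (59.9 Mb, 1.31). Running numbers absent from them were 1021 in the dox list and 973 in the control list, and the cause is unknown. Library depths are unknown. Whole-number pileups and backgrounds returning the deposited values within 0.01 were found for 99.92% of dox and 99.96% of control summits, and for all 1470 far raised regions. The commonest background was 3.63 reads in dox and 2.83 in control cells, and this ratio of 1.28 was taken as that of depths. The median uncentred log2 ratio of shared regions was −0.13 by fold enrichment and 0.09 by pileup, where 1 read was added to each count.

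Gene ends (1000 bp around both outer ends of 21900 protein-coding genes) came from a RefSeq table of GRCm38.p6, which gives no strand, and promoter windows from a RefSeq promoter table. No genome sequence was at hand, so motifs in other regions were not searched. Shares carry exact 95% binomial intervals, and neighbouring regions are not independent. The regions and gene lists were chosen with earlier results of these data known. Named were the 10 regions with the highest ratio and the 10 with the highest dox value (1 of these is not reported here), list genes with a region at a gene end, the 8 largest groups, and the regions nearest each limit. List genes with a region within 50 kb, histone genes and genes in the closing section were named after their values had been seen. The merging and recovery steps were tested on simulated data. Python 3.11.15, pandas 2.3.3, numpy 2.4.6, SciPy 1.17.1 and Matplotlib 3.10.9 were used.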

Additional observations from a re-analysis of the deposited data

How the results depend on the processing

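The number of far raised regions stayed within 1.5 times of 1470 under 6 alternatives. These were a shared overlap of at least 50% of the shorter interval (1460), no centring (1063), width-weighted means (1081), recovered pileups (1351), and limits of 10 kb (1849) or 100 kb (1228) to a GLI1 site. It fell to 381 with a −log10 q of at least 10 in both lists, to 451 with a ratio of at least 1.5, and to 723 when pileups were scaled by the depth ratio, an alternative added after seeing the data. Of the 1470, 1050 (71.4%) were also raised by pileup, 77.7% of the 1351, and 887 (60.3%) by width-weighted mean, 82.1% of the 1081. With pileups scaled by depth, the median pileup ratio was 0.97, and 0.67 at gene ends.

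The median pileup ratio (1.24) was 1.09 with the strict q, 1.39 without centring, 1.21 for regions chosen by width-weighted mean, 1.30 by pileup and 1.75 with a ratio of at least 1.5. In the same order the median width-weighted ratio (1.06) was 0.95, 1.15, 1.20, 1.00 and 1.37. The share with a −log10 q of at least 10 in both lists (29.7%) was 25.5% without centring, 35.1% by width-weighted mean, 24.4% by pileup and 19.1% with a ratio of at least 1.5. The strict q gives no value for it, since it fixes the share.

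The share at gene ends (22.1%) was below that of other far regions under 9 alternatives in which both were chosen the same way. It was 34.4% with the strict q, 17.9% without centring, 29.7% by width-weighted mean, 13.5% by pileup, 11.1% with a ratio of at least 1.5 and 30.1% with gene ends of 5000 bp. Measured to annotated start sites, added after seeing the data, it was 21.0%, against 29.5% of all shared regions. The share with another such region within 100 kb (32.9%) was 13.1%, 27.1% and 24.1% with the strict q, no centring and width-weighted means, 14.4% with a ratio of at least 1.5, 37.9% with 10 kb to a GLI1 site and 24.1% within 50 kb. List genes with a region at a gene end (9) were 13 within 5000 bp and 58 within 50000 bp. The median CpG number of 14 was the same with 1 window per gene, also added after seeing the data. The causes of these shifts were not tested.

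No paired analysis was possible because the replicates were pooled before peaks were called, and leaving out a replicate was not possible for the same reason. The lists hold only peaks past the authors' threshold, so every region counted as shared had a control peak past it.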

Other observations

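Some genes were nearest to several far raised regions. By nearest gene, the 1470 regions belonged to 1224 genes, of which 1031 had a single one and 11 had 4 or more. Besides the 3 transcription factor genes described next, which were picked after their values were seen, these were Iqschfp with 5 and Bach2, Bmf, Cep41, Gnaq, Kitl, Phactr2 and Tenm4 with 4 each. Foxp1 had the most, 7 of its 20 shared regions over 50 kb from a GLI1 site, and 0 of the 20 were lowered. In the 7 raised ones, dox values ran from 10.6 to 17.1 and control values from 3.13 to 7.83. Sox6, a factor gene of muscle and cartilage, had 5 of 25, the closest of them 877 kb from a GLI1 site. A pair of neighbouring regions inside Sox6 had 20.3 and 20.9 in dox and 5.48 in control cells at both (log2 ratios 2.02 and 2.07), yet 5 others of the 25 were lowered. Its relative Sox5 had 4 of 16, with ratios between 1.33 and 1.83 and 0 lowered. The median ratio over all its 16 regions was −0.17, so the raised ones stood apart from the rest of that gene. Foxp1, Sox6 and Sox5 span 597, 570 and 954 kb, and the part of gene length in these counts was not tested. A further 8 shared regions nearest Foxp1 and 8 nearest Bach2 lay within 50 kb of a GLI1 site. For Sox5 and Tenm4 it was 3 each, and for Sox6 0.

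The gene of a Hedgehog ligand also lay at a far raised region, outside the lists. A region of 924 bp at an end of Dhh, which it shares with Rhebl1, had a fold enrichment of 10.3 in dox and 3.71 in control cells, a log2 ratio of 1.61. The pileups were 48 reads in dox and 33 in control cells, a ratio of 0.44. In Lamc1, a laminin gene, 3 regions had 20.6, 13.5 and 17.9 in dox and 4.30, 4.16 and 6.30 in control cells.

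Of 1005 microRNA hairpins in the RefSeq table, 95 overlapped a shared region over 50 kb from a GLI1 site and 4 of these (4.21%) a far raised region, against 5.14% of such regions that were raised. Mir7228 had 13.1 in dox and 3.73 in control cells (log2 ratio 1.94, pileup 1.66), and Mir30a 17.9 and 8.48 (1.21, pileup 0.64). Mir8092 had 33.3 in dox and 16.6 in control cells (1.13, pileup 0.43) and Mir7036b 20.5 and 10.6 (1.09, pileup −0.03), so by pileup the last stood near the median of all shared regions.

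By chromosome, the raised share of shared regions over 50 kb from a GLI1 site was 2.63% on X (22 of 837, 95% interval 1.65 to 3.95) and 7.06% on chromosome 19 (54 of 765, 5.35 to 9.11). On the other autosomes it lay between 3.84% and 6.32%.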
